A study of Mus musculus with 24 samples.

Results

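The genes described here are 42 mouse genes of DNA replication and of the passage from G1 into S phase, taken by symbol from the 54532 genes of the deposited table. They are the origin licensing genes, the MCM helicase, the genes that start and carry the replication fork, the sliding clamp and its loader, DNA polymerases, the joining of Okazaki fragments, nucleotide supply, the cyclin E and E2F genes of the G1/S step, and Uhrf1, which helps to copy DNA methylation. Of the 42, 41 passed the filter on low counts and were tested. Clspn, an adaptor of the fork checkpoint, did not pass, with 74 reads in all 24 libraries.

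In G1, the origin recognition complex, Cdc6 and Cdt1 load the MCM helicase onto DNA, which licenses an origin to fire once. Activating E2F factors, held in check by the retinoblastoma family until cyclin-dependent kinases release them, switch on many of these genes before S phase. In many cell types TGF-β holds cells in G1, and macrophages grown in culture divide in response to CSF-1 and slow down when starved. A level of messenger RNA is not a measure of division, and cell cycle phase was not measured here.

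The libraries are polyadenylated RNA of macrophages grown from tibial bone marrow of C57BL/6 mice 2 to 3 months old. All groups were grown first with a source of IL-3 and CSF-1 and then with CSF-1 and serum until confluent, were starved of serum for about 16 h, and were then left untreated or given TGF-β1 at 10 ng/ml for 4 h. The 4 genotypes were Smad2fl/fl (here Smad2fl), Smad2fl/fl with LyzM-Cre (MyS2KO), Smad3fl/fl (Smad3fl) and Smad3fl/fl with LyzM-Cre (MyS3KO), each with 3 untreated and 3 treated libraries. LyzM-Cre expresses the recombinase from the lysozyme gene of myeloid cells, so both floxed groups lack it and differ from their knockouts also by the recombinase. The labels do not say whether the 3 libraries of a group came from separate mice or cultures, so p-values measure the spread between these libraries, which may be technical. The protocol text mentions 8 cDNA libraries although the series has 24 samples, and whether RNA was pooled is not known.

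Library totals were 16.9 to 24.9 M counted reads. Levels between libraries are given in CPM, counts per M reads of the scaled library total, where M stands for mega. Smad2 lay at 39.6 to 45.4 CPM in untreated Smad2fl and at 37.1 to 42.5 in untreated libraries labelled MyS2KO, so the count over the whole gene did not show the labelled loss and directions in that line rest on the labels. Such a count does not resolve the deleted exons, and MyS2KO below stands for the libraries so labelled. Smad3 lay at 369 to 460 CPM in untreated Smad3fl and at 161 to 209 in untreated MyS3KO, and in Smad2fl and MyS2KO it was at 26.4 to 66.6. Smad3 was thus lower in MyS3KO but not lost (log2 difference -1.21 ± 0.14, adjusted p = 6.91e-06). Untreated MyS3KO held more Smad3 than untreated MyS2KO (2.56 ± 0.14), and untreated Smad3fl more than untreated Smad2fl (3.355 ± 0.147). The cause of this difference between the lines was not tested. Of 8 macrophage markers all were tested, while none of the T and NK, mast cell or erythroid markers passed the filter. The B cell list summed to 157 to 238 CPM in untreated and 91 to 107 in treated Smad2fl, almost all of it Ighm. In bulk RNA, fewer cells of a type and less RNA per cell cannot be told apart.

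Promoter sequences are shown for the 4 genes that rose with TGF-β1 in at least 3 of the 4 genotypes, E2f2, Cdt1, Mcm6 and Mcm3, and for Mcm10, which was lower with TGF-β1. They are the RefSeq windows of 300 bases on GRCm38.p6, 250 bases before to 50 after a start site, written 5′ to 3′ on the gene's strand. Capitals mark the 7-base cores TTCCCGC or TTGGCGC of the E2F motif, or their reverse complements.
E2f2 promoter, chr4:136172024-136172323, plus strand: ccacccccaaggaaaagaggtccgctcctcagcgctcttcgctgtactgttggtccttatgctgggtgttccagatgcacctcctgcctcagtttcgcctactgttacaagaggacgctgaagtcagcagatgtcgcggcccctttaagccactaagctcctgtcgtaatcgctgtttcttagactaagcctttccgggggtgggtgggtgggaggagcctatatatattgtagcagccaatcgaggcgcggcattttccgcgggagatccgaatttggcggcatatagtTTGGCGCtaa
Cdt1 promoter, chr8:122567765-122568064, plus strand: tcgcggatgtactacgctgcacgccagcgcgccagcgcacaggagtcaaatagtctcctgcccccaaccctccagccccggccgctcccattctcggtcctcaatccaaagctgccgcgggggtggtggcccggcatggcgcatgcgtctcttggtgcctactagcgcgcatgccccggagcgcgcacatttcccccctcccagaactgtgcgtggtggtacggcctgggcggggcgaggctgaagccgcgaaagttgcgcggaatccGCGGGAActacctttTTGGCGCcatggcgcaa
Mcm6 promoter, chr1:128359656-128359955, minus strand: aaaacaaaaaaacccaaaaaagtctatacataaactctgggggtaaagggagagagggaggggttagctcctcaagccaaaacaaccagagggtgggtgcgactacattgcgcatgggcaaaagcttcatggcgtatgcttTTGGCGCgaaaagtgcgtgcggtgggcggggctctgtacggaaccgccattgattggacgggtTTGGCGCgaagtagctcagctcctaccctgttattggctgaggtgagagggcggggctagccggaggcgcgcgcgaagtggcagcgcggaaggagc
Mcm3 promoter, chr1:20820263-20820562, minus strand: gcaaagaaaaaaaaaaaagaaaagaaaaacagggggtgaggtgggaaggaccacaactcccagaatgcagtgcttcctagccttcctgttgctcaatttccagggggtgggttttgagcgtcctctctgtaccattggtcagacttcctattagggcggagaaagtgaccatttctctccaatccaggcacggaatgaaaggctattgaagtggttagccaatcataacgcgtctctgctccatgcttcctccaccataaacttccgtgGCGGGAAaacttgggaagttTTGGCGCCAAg
Mcm10 promoter, chr2:5012742-5013041, minus strand: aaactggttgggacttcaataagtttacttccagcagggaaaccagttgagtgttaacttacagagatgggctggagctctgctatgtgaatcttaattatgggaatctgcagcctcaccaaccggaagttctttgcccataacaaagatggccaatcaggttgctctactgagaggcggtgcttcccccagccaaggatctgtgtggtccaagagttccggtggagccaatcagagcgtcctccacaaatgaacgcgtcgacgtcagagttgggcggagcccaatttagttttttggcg

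The 8-base E2F words TTTCCCGC or TTTGGCGC, searched on both strands, lay in a window of 11 of the 35 replication and G1/S genes that had one (31.4%), against 1.8% of the 27025 genes of the RefSeq table. The shorter core lay in 18 of 35 (51.4%), against 7.79% of all genes. Among the 11 were E2f2, Cdt1, Mcm6 and Mcm3, and also Cdc6, Gins3, Mcm5, Mcm7, Pola1, Pold1 and Rfc3. None of the latter passed the test for TGF-β1 within a genotype in the fit without a replicate block. Mcm7 was called higher in the mean response over genotypes (0.43 ± 0.10), and in Smad3fl with the block. In E2f2 the core began 41 bases after the start, and a second E2f2 window held none. In Mcm6 both cores lay before the start, and in Cdt1 and Mcm3 all lay after it. The Mcm10 and Tk1 windows held no such core. The Mcm10 window ends in TTGGCG, a core without its final base, so a core across that edge could not be found. The SMAD box CAGAC was found in 42.9% of these genes and 53.2% of all, the palindrome GTCTAGAC in 0% and 0.248%, the word GGCGCC in 25.7% and 13.4%, and the CCAAT box in 65.7% and 41.1%. A match says only that the letters are there, and binding was not measured.

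Most of these genes were expressed at a low level. In FPKM, the deposited value per length of gene, the median of all tested genes was 5.74, and 28 of the 41 tested replication and G1/S genes lay below it. Only 8 lay over 10 FPKM. Pcna, the sliding clamp, was the most abundant at a mean of 259 FPKM over the 24 libraries (range 201 to 346), which put it at percentile 97 of tested genes. Cdt1, the loading factor, followed at 54.9 FPKM (24.4 to 90.0), then Rfc2 of the clamp loader at 21.1 (16.6 to 28.9) and the helicase subunit Mcm6 at 20.4 (6.77 to 36.6). The order of Rfc2 and Mcm6 does not hold in single libraries, since their ranges overlap. At the low end, 10 tested genes had under 1 FPKM, among them the catalytic polymerase subunits Pole (0.172) and Pola1 (0.347), the primase subunit Prim1 (0.193), the ribonucleotide reductase subunit Rrm2 (0.342), Cdc6 (0.544), Mcm5 (0.655), Gins2 (0.663), Cdc45 (0.819) and Fen1 (0.829). Members of one complex thus stood at very different levels: Rrm1, the large reductase subunit, had a mean of 11.1 FPKM beside the 0.342 of Rrm2, and Mcm6 stood at 20.4 beside the 0.655 of Mcm5. E2f1 lay at 6.04 FPKM (4.21 to 8.92) and E2f2 at 2.11 (0.0665 to 6.37).

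**Figure D1:**
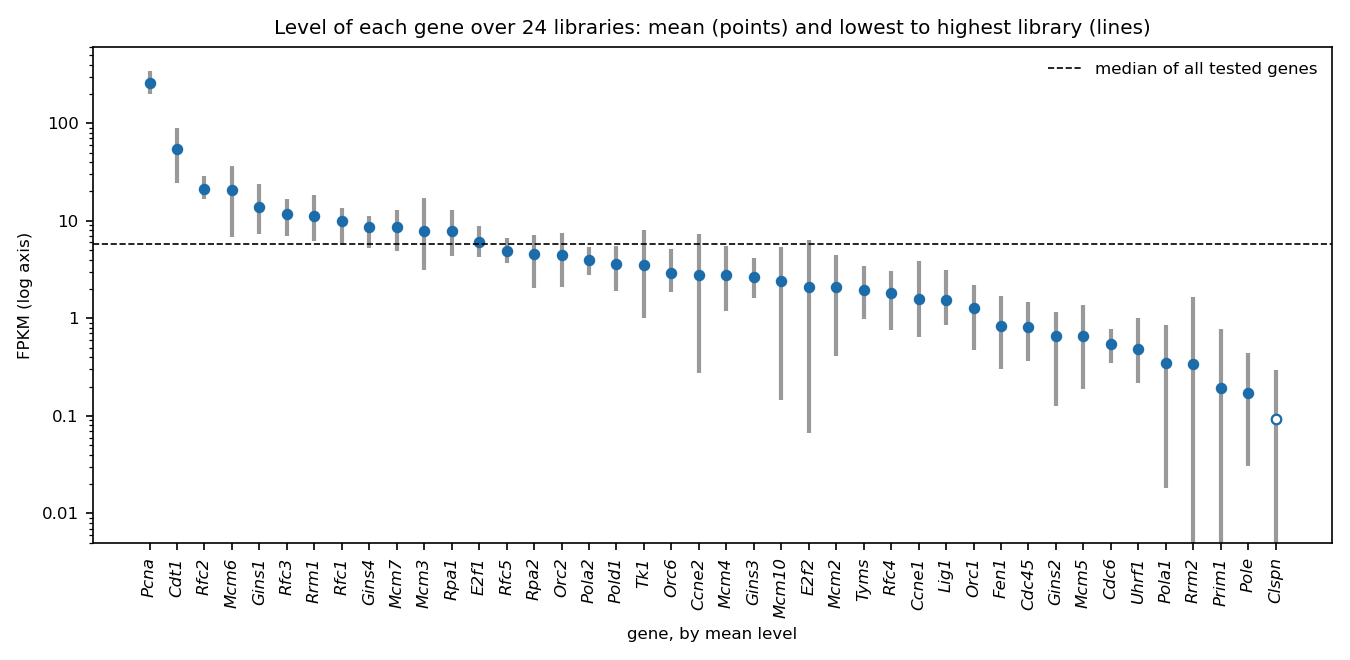
Mean FPKM of the 42 genes over 24 libraries (points, log axis) with the lowest and highest library (lines), ordered by mean, and the median of all tested genes (dashed, 5.74 FPKM). Pcna at 259 FPKM and Cdt1 at 54.9 stand above the others, Clspn (open point) was not tested, and lines that reach the lower edge go to 0.

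TGF-β1 was compared with no treatment within each genotype. In all 4 genotypes E2f2, Cdt1 and Mcm6 rose, by 2.02 to 3.88, 0.85 to 1.62 and 0.56 to 1.35 on the log2 scale. The helicase subunit Mcm3 rose in Smad2fl, Smad3fl and MyS3KO, and the other calls were in 1 or 2 genotypes. Called means an adjusted p under 0.05 in edgeR's quasi-likelihood test with Benjamini-Hochberg adjustment over all 14261 tested genes. The test called 5 of 41 genes higher and 0 lower in Smad2fl, where 11.1% of all tested genes were called. In the libraries labelled MyS2KO it called 3 higher and 0 lower, where 3.41% of all genes were called. In Smad3fl 6 were called higher and 0 lower against 12% of all genes, and in MyS3KO 6 higher and 0 lower against 10%. These shares of the replication and G1/S genes, 12.2%, 7.32%, 14.6% and 14.6%, were near those of all genes except in MyS2KO, where they rest on 3 genes. In Smad2fl the count was 3 without any 1 of 5 libraries, all but the treated library numbered 3. The median log2 change of the 41 genes was 0.06, 0.08, 0.27 and 0.21 in that order, beside 0.01, 0.01, -0.03 and 0.00 over all tested genes.

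**Figure D2:**
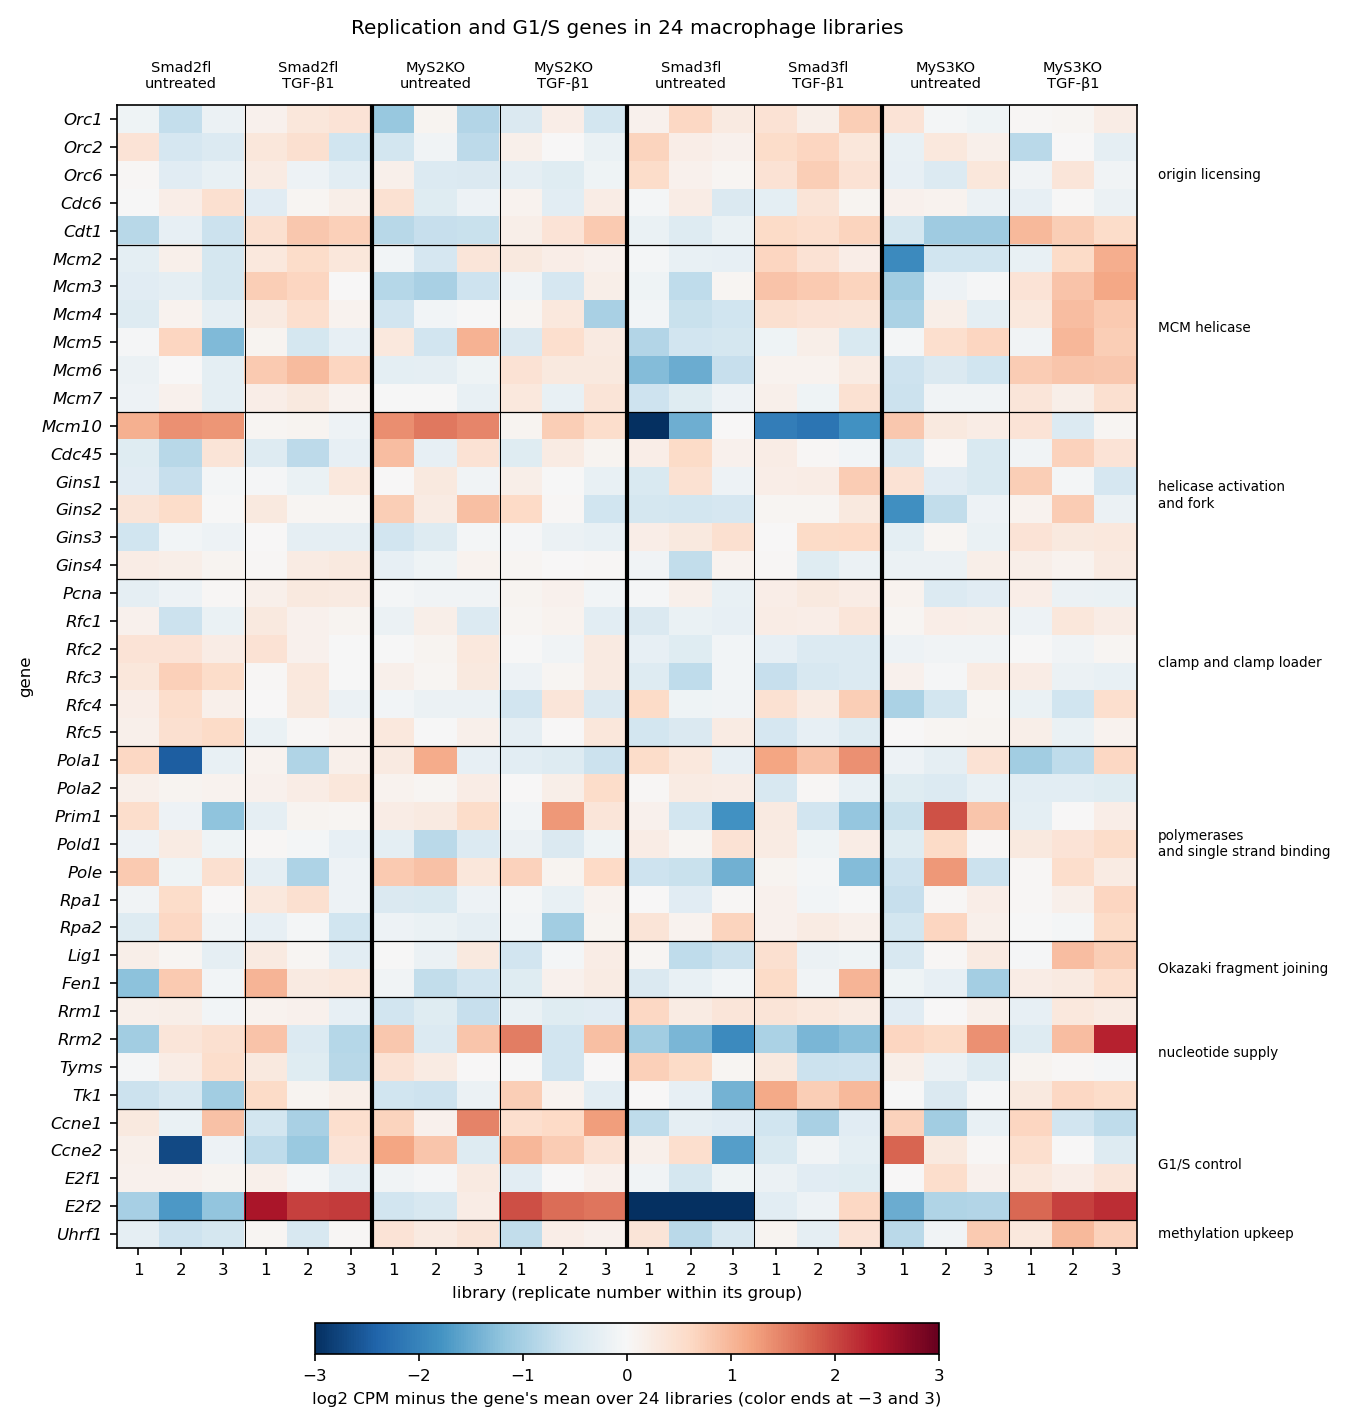
Level of 41 genes (rows, by role) in 24 libraries (columns, by group), as log2 CPM minus the gene's mean over the libraries. E2f2 is above its mean in every treated Smad2fl, MyS2KO and MyS3KO library and farthest below it in untreated Smad3fl, while most rows stay near their mean.

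**Figure D3:**
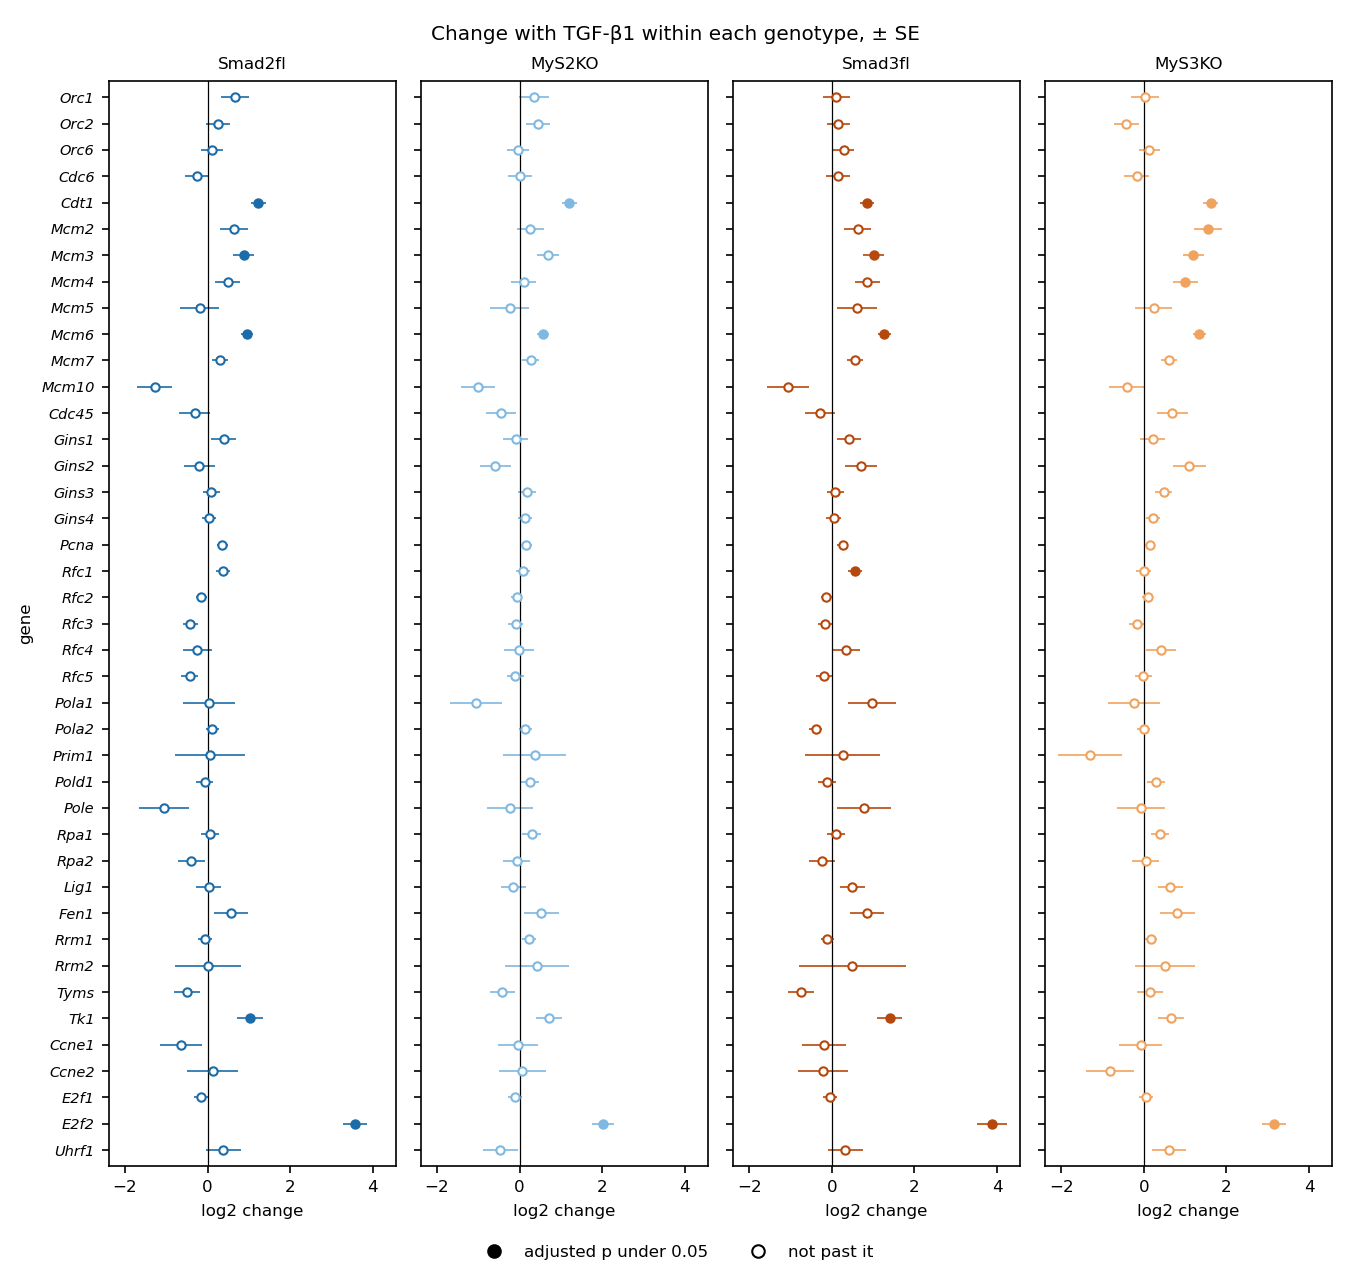
Log2 change with TGF-β1 ± SE of each of 41 genes in the 4 genotypes, filled where the adjusted p was under 0.05. E2f2 lies at 3.57, 2.02, 3.88 and 3.15 in Smad2fl, MyS2KO, Smad3fl and MyS3KO, and most other points lie within 1 of 0.

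With the replicate number as a block, which the check of same-numbered libraries allowed in 2 genotypes, more genes were called. In MyS2KO the block gave 5 calls, 4 higher and 1 lower, with Mcm3 higher and Mcm10 lower added, while the calls over all 14261 genes went from 486 to 1032. In Smad3fl it gave 10 calls, 9 higher and 1 lower, with Mcm4, Mcm7 and Pcna higher and Pola2 lower added. There the calls over all genes went from 1714 to 3306, so in both genotypes the rise was not limited to the replication and G1/S genes. Averaged over the 4 genotypes, the response was called for 12 of 41 genes, 11 higher and 1 lower, or 29.3%, where 30.1% of all tested genes were called.

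Among the G1/S genes, E2f2, an activating E2F factor, had the largest response. In Smad2fl it stood at 1.39, 0.795 and 1.19 CPM untreated and at 16.1, 12.1 and 12.5 with TGF-β1, a log2 change of 3.57 ± 0.29 (edgeR adjusted p = 8.16e-09). In the libraries labelled MyS2KO it went from 1.88, 2.03 and 3.32 CPM to 11.1, 9.31 and 8.95 (2.02 ± 0.27, adjusted p = 3.12e-05). The treated libraries lay above every untreated one in both genotypes. In Smad3fl E2f2 was lowest of all groups at 0.239, 0.180 and 0.188 CPM, 14 reads in 3 libraries, and rose to 2.27, 2.55 and 4.48 (3.88 ± 0.37, adjusted p = 1.14e-07). In MyS3KO it rose from 0.954, 1.48 and 1.50 CPM to 9.63, 12.2 and 13.5 (3.15 ± 0.29, adjusted p = 5.08e-08). No treated library of any genotype overlapped the untreated libraries of its own genotype. The mean response over the genotypes was 3.15 ± 0.15 (adjusted p = 1.66e-13). E2f1, its close relative, lay between 11.3 and 23.6 CPM in all 24 libraries and had log2 changes of -0.16 ± 0.17, -0.11 ± 0.17, -0.05 ± 0.17 and 0.05 ± 0.17, none called. The cyclin E genes Ccne1 and Ccne2, partners of Cdk2 at the G1/S step, were not called in any genotype. Ccne2 varied widely between libraries of 1 group, with 4.02, 0.477 and 3.27 CPM in untreated Smad2fl.

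Among the licensing genes, Cdt1, which delivers the helicase to origins, rose in each genotype. Its level in Smad2fl was 37.7, 57.1 and 43.0 CPM untreated and 93.9, 118 and 111 with TGF-β1, a log2 change of 1.23 ± 0.18 (edgeR adjusted p = 2.77e-05). In MyS2KO it was 38.1, 41.8 and 42.1 CPM against 76.3, 88.9 and 116 (1.20 ± 0.18, adjusted p = 9.17e-05). The treated libraries lay above all untreated ones in both genotypes. In Smad3fl it was 58.2, 51.4 and 58.5 CPM against 100.3, 96.2 and 107 (0.85 ± 0.17, adjusted p = 0.00147). In MyS3KO it was 46.9, 32.3 and 32.0 CPM against 132, 112 and 98.1 (1.62 ± 0.18, adjusted p = 7.6e-07). The groups did not overlap there either. The origin recognition genes Orc1, Orc2 and Orc6 and the loading factor Cdc6 were not called in any genotype. Cdc6 had log2 changes between -0.26 and 0.16, and Orc1 between 0.03 and 0.66.

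The MCM genes encode the 6 subunits of the replicative helicase. Untreated Smad2fl held Mcm6 at 34.1, 39.2 and 31.5 CPM, and TGF-β1 libraries at 66.5, 75.0 and 60.7 (log2 change 0.95 ± 0.15, edgeR adjusted p = 0.000107). In MyS2KO it stood at 31.6, 32.1 and 35.3 CPM and at 51.8, 47.5 and 47.2 (0.56 ± 0.15, adjusted p = 0.0372). Groups did not overlap, but in MyS2KO the call was lost without any 1 of the 6 libraries and without the low-count filter. In Smad3fl Mcm6 stood at 15.6, 13.8 and 24.0 CPM and at 41.6, 41.8 and 45.9 (1.28 ± 0.15, adjusted p = 3.15e-06). In MyS3KO it stood at 25.2, 28.7 and 25.3 CPM and at 65.2, 69.3 and 67.5 (1.35 ± 0.15, adjusted p = 1.34e-06). Treated libraries of these 2 genotypes were all above the untreated ones.

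Mcm3 was called in 3 genotypes. In Smad2fl it stood at 9.63, 10.1 and 8.41 CPM untreated, against 20.3, 19.0 and 12.3 after TGF-β1 (0.87 ± 0.26, edgeR adjusted p = 0.0284), a call lost without any of 5 libraries. In Smad3fl it stood at 11.1, 7.16 and 12.6 CPM against 22.1, 21.0 and 19.4 (1.01 ± 0.26, adjusted p = 0.00962), lost without the untreated library numbered 2. In MyS3KO it stood at 5.90, 10.9 and 11.9 CPM against 16.2, 22.3 and 27.6 (1.20 ± 0.26, adjusted p = 0.00298). No treated library overlapped the untreated ones in these genotypes. In MyS2KO, Mcm3 stood at 6.67, 6.21 and 7.95 CPM against 11.3, 8.57 and 13.7 (0.69 ± 0.26, adjusted p = 0.224), and its groups did not overlap there either. Without the block, Mcm2 and Mcm4 were called in MyS3KO and in no other genotype. There Mcm2 stood at 0.596, 1.63 and 1.64 CPM untreated and 2.15, 3.82 and 5.45 treated (1.55 ± 0.34, adjusted p = 0.00387). The Mcm2 call was lost without the treated library numbered 3 and with only the groups compared in the fit. Mcm4 changed by 1.01 ± 0.30 (adjusted p = 0.0341), a call lost without any 1 of 4 of its 6 libraries. It was lost also with library totals in place of TMM and with only the groups compared in the fit. Their log2 changes in the other genotypes were 0.26 to 0.64 for Mcm2 and 0.10 to 0.86 for Mcm4, and no difference between genotypes passed the interaction test. In the mean response over genotypes, Mcm2 (0.77 ± 0.17), Mcm3 (0.94 ± 0.13), Mcm4 (0.62 ± 0.15), Mcm6 (1.03 ± 0.08) and Mcm7 (0.43 ± 0.10) were called higher. Mcm5, the remaining subunit, was at 0.655 FPKM and was not called in any of these comparisons. Mcm7 overlaps Cops6 and Ap4m1 on the opposite strand by whole gene spans. Reads may be mixed where exons overlap, which was not checked.

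**Figure D4:**
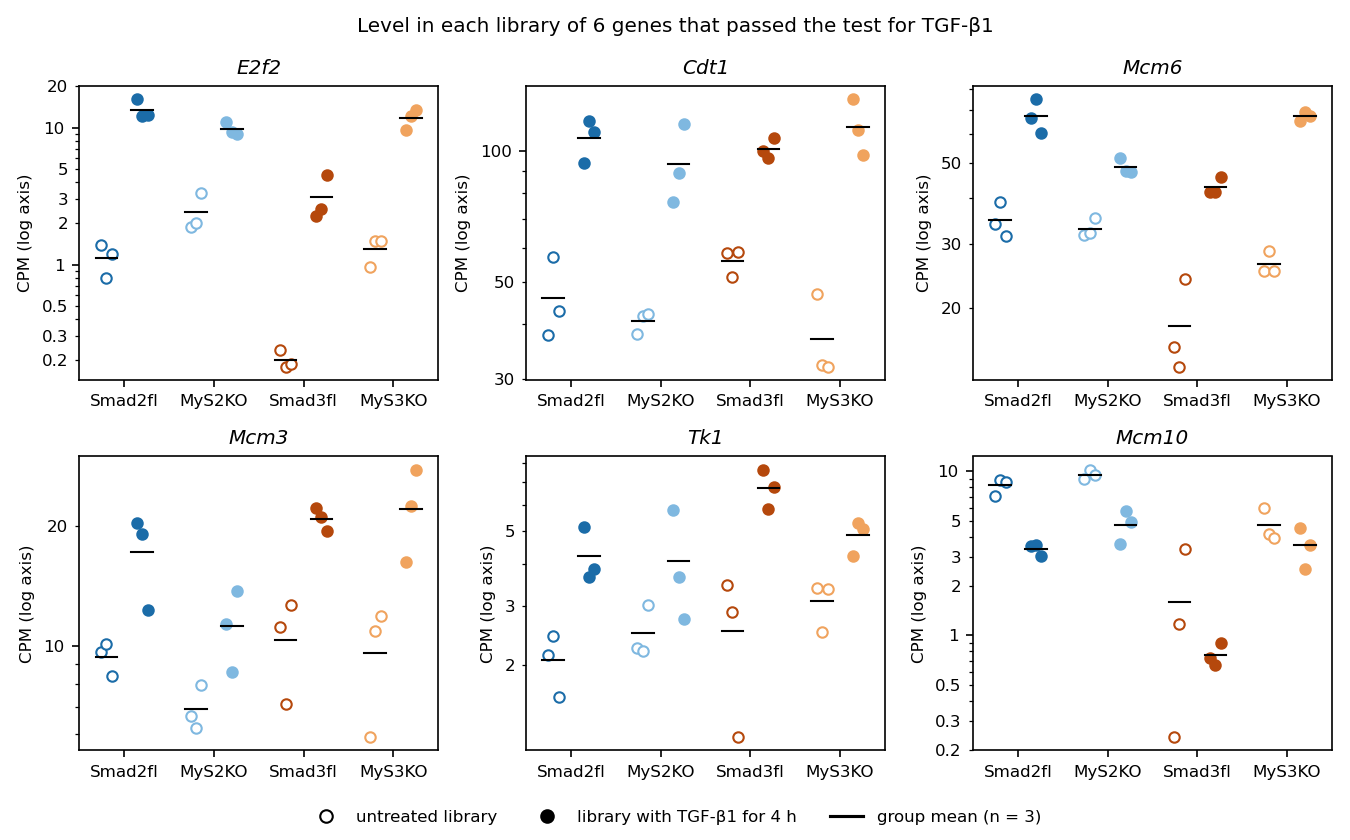
CPM in each of the 24 libraries (log axis) of E2f2, Cdt1, Mcm6, Mcm3, Tk1 and Mcm10, open without and filled with TGF-β1, with group means as bars. Treated E2f2, Cdt1, Mcm6 and Mcm3 libraries lie above the untreated ones of their genotype, and Mcm10 lies lower with TGF-β1 in Smad2fl and MyS2KO.

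Of the genes that activate the helicase, Mcm10, a scaffold of the early fork, went the other way. Untreated Smad2fl held 7.12, 8.90 and 8.61 CPM, and 3.51, 3.57 and 3.03 after TGF-β1 (-1.28 ± 0.42, edgeR adjusted p = 0.0544). In MyS2KO it stood at 8.97, 10.2 and 9.51 CPM against 3.58, 5.70 and 4.94 (-1.01 ± 0.42, adjusted p = 0.29). In the Smad2 line the treated libraries were all below the untreated ones. In Smad3fl Mcm10 was low and uneven, at 0.239, 1.17 and 3.38 CPM against 0.725, 0.660 and 0.895. In MyS3KO it was 6.02, 4.14 and 3.93 CPM against 4.54, 2.53 and 3.54. The groups overlapped in the Smad3 line. With the low-count filter and no block no single genotype was called, and without that filter Mcm10 was called lower in Smad2fl, MyS2KO and Smad3fl. The mean response fell by 0.94 ± 0.22 on the log2 scale (adjusted p = 0.00243), the only one of the 12 calls to do so. Cdc45, which joins the MCM ring and GINS into the active helicase, had log2 changes of -0.45 to 0.69 and was not called. The GINS genes were not called either, with changes of Gins2 between -0.59 and 1.10.

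Few genes of the clamp, its loader and the polymerases passed the test. Pcna ranged from 192 to 238 CPM in Smad2fl without treatment and from 254 to 284 with it, and its log2 changes were 0.36 ± 0.14, 0.15 ± 0.14, 0.26 ± 0.14 and 0.14 ± 0.14 in Smad2fl, MyS2KO, Smad3fl and MyS3KO, none called without the block. Its mean response rose by 0.23 ± 0.07 (edgeR adjusted p = 0.0162). Rfc1, the large subunit of the clamp loader, was called in Smad3fl, from 21.9, 25.8 and 24.8 CPM to 34.3, 34.1 and 38.4 (0.56 ± 0.18, adjusted p = 0.0401). The call was lost in 8 of 14 alternatives, among them leaving out any 1 of its 6 libraries. That of its mean response, 0.25 ± 0.09 (adjusted p = 0.0343), was lost in 21 of 31. Without the block, Rfc2, Rfc3, Rfc4 and Rfc5 were not called, nor were the polymerase genes Pola1, Pola2, Pold1 and Pole, the primase Prim1, and the single strand binding genes Rpa1 and Rpa2. The low counts of Pola1, Prim1 and Pole gave standard errors of 0.56 to 0.90 on the log2 scale, so only large changes of these genes were detectable. Of the genes that finish Okazaki fragments, the flap nuclease Fen1 was called in the mean response alone (0.69 ± 0.21, adjusted p = 0.0147), and the ligase Lig1 was not called. Fen1 overlaps Tmem258 on the opposite strand by whole gene spans, and reads may be mixed where exons overlap, which was not checked. Uhrf1 had log2 changes of -0.46 to 0.61, none called.

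Of the nucleotide supply genes, thymidine kinase Tk1, the salvage enzyme, rose in both floxed groups. In Smad2fl it stood at 2.15, 2.44 and 1.61 CPM untreated and 5.15, 3.66 and 3.86 treated (1.03 ± 0.32, edgeR adjusted p = 0.0353), a call lost without any 1 of the 6 libraries. In Smad3fl it stood at 3.47, 2.88 and 1.22 CPM against 7.61, 5.81 and 6.77 (1.40 ± 0.31, adjusted p = 0.0029), a call lost with only the groups compared in the fit. Treated libraries lay above untreated ones in both. Tk1 had a log2 change of 0.70 ± 0.31 in MyS2KO (adjusted p = 0.362) and of 0.66 ± 0.31 in MyS3KO (adjusted p = 0.214). The difference from the floxed libraries did not pass the interaction test. Tk1 overlaps Afmid on the opposite strand by whole gene spans, and the mean response of Afmid was 0.83 ± 0.18. The strand setting of the counts is not given in the sources used here. Reads of both may thus be mixed where exons overlap, which was not checked. The reductase genes Rrm1 and Rrm2 and thymidylate synthase Tyms were not called. Tyms had log2 changes of -0.50 ± 0.31, -0.42 ± 0.31, -0.74 ± 0.31 and 0.15 ± 0.31.

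Genes around the same step were read from lists of other symbols, beside shares of called genes among all tested of 11.1%, 3.41%, 12% and 10% in Smad2fl, MyS2KO, Smad3fl and MyS3KO. Of 14 tested genes on a list of E2F and retinoblastoma family genes and others, 3 rose and 0 fell in Smad2fl, and 2 rose and 0 fell in MyS2KO. In each genotype of the Smad3 line 3 rose and 2 fell. Lin9, a gene of the list that belongs to neither family, was among those that rose in Smad2fl, Smad3fl and MyS3KO. Its mean response was 1.06 ± 0.12. E2f3, another activating factor, rose in all 4 genotypes, with a mean response of 0.78 ± 0.09 (edgeR adjusted p = 1.78e-07), and so did E2f4 (0.44 ± 0.05, adjusted p = 1.01e-06). The pocket protein Rbl2 fell in Smad3fl (-1.15 ± 0.15) and MyS3KO (-0.77 ± 0.15). Of 18 G1 regulators, 0 rose in any genotype and 1, 2, 5 and 2 fell. Cdkn2b, an inhibitor of Cdk4 and Cdk6 known as a TGF-β target in epithelial cells, fell in each of the 4, with a mean response of -1.59 ± 0.12 (adjusted p = 5.64e-10). Myc and Skp2 of the same list, which are not such inhibitors, fell as well. Myc was called in MyS2KO (-1.08 ± 0.28), and Skp2 in Smad3fl (-0.57 ± 0.15) and MyS3KO (-0.59 ± 0.155). Of 27 tested S and G2/M genes, such as the mitotic cyclins and kinesins, only Cdk1 in Smad2fl passed within a genotype, lower (-0.78 ± 0.24, adjusted p = 0.0339). In the mean response, where 30.1% of all tested genes were called, genes of this list were called in both directions. Those of smallest p were Cdk1 (-0.48 ± 0.12), Birc5 (0.88 ± 0.27), Kif23 (0.59 ± 0.21) and Anln (0.90 ± 0.33). The summed level of the list was 80.5 to 110 CPM in treated and 90.2 to 102 in untreated Smad2fl. In the other genotypes treated and untreated ranges overlapped as well. The B cell gene Ighm fell with TGF-β1 in 3 genotypes, and its part in the responses was not tested. Of 49 other tested replication and repair genes, 1 rose in Smad2fl, 1 fell in MyS2KO, 4 rose and 2 fell in Smad3fl, and 0 passed in MyS3KO. In the mean response more genes of this list were called, again in both directions. Those of smallest p were Slbp (0.58 ± 0.09), Timeless (-0.85 ± 0.15), Dna2 (1.54 ± 0.28) and Atad2 (1.045 ± 0.204).

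The effect of the Smad2 knockout on these genes was read by setting libraries labelled MyS2KO against Smad2fl. No replication or G1/S gene passed edgeR's quasi-likelihood test, with 0 of 41 called untreated, where 0.0701% of all genes were called, and 0 of 41 with TGF-β1, where 0.421% were. At an unadjusted p under 0.05 there were 5 and 3, and DESeq2 called 1, Rrm1 lower, and 0. Rrm1 stood at 21.7, 22.1 and 18.5 CPM in untreated Smad2fl and 13.2, 15.4 and 12.2 in untreated MyS2KO (-0.61 ± 0.16, edgeR adjusted p = 0.211), and those groups did not overlap. E2f2 was at 1.08 ± 0.30 (adjusted p = 0.215) untreated and -0.47 ± 0.25 (adjusted p = 0.598) with TGF-β1. The largest difference was of Ccne2, at 1.16 ± 0.60 and 1.11 ± 0.59, with adjusted p = 0.601 and 0.603. The interaction of knockout and TGF-β1 in this line was called for 0 of 41 genes by edgeR and by DESeq2, with 1 at an unadjusted p under 0.05, where 0.00701% of all genes were called. That gene was E2f2, whose log2 response in MyS2KO minus that in Smad2fl was -1.55 ± 0.39 (edgeR adjusted p = 0.484).

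In the Smad3 line, MyS3KO against Smad3fl, E2f2, Mcm10, Mcm6, E2f1 and Rrm2 were higher in MyS3KO both untreated and with TGF-β1. Untreated, 7 of 41 genes were called, 5 higher and 2 lower, where 17.7% of all genes were called. With TGF-β1, 6 were called, 5 higher and 1 lower, where 28.2% of all genes were called. These shares, 17.1% and 14.6% of the replication and G1/S genes, were not above those of all genes. E2f2 differed by 2.66 ± 0.39 untreated (edgeR adjusted p = 0.000111) and by 1.94 ± 0.27 with TGF-β1 (adjusted p = 4.82e-05), and no library of MyS3KO overlapped Smad3fl of the same treatment. Mcm10 differed by 1.57 ± 0.45 (adjusted p = 0.0185) and 2.21 ± 0.49 (adjusted p = 0.00286). The untreated difference ranged from 1.05 to 2.77 over the alternatives, and its call was lost in 3 of 14, among them without the Smad3fl library numbered 2 and without the MyS3KO library numbered 1. Its lowest untreated MyS3KO library, at 3.93 CPM, lay above the highest untreated Smad3fl library, at 3.38. Mcm6 differed by 0.57 ± 0.15 (adjusted p = 0.0126) and 0.64 ± 0.15 (adjusted p = 0.00393), and the untreated call was lost in 4 of 14 alternatives. E2f1 stood at 15.2, 11.3 and 14.9 CPM in untreated Smad3fl and 16.4, 23.6 and 17.7 in untreated MyS3KO (0.48 ± 0.17, adjusted p = 0.0492). With TGF-β1 it stood at 14.5, 12.9 and 12.6 CPM against 20.4, 18.6 and 20.9 (0.58 ± 0.17, adjusted p = 0.0134). The untreated call of E2f1 was lost in 8 of 14 alternatives, among them the replicate block, library totals and no low-count filter, and the treated one in 2 of 14. Under both treatments every MyS3KO library was above every Smad3fl library.

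Rrm2, the small reductase subunit that limits nucleotide supply, was called on very few reads. It had 3 reads in the 3 untreated Smad3fl libraries and 35 in untreated MyS3KO, a ratio of 13.7 with a 95% exact binomial interval of 4.32 to 69.6. With TGF-β1 it had 4 and 55 reads, a ratio of 14.4 (5.31 to 54.6). Both intervals, set relative to the TMM-scaled library totals, cover counting error only. In treated MyS3KO it stood at 0.184, 0.595 and 1.70 CPM, so 1 library, numbered 3, held most of the reads, and the treated call was lost without it. The untreated call was lost without the Smad3fl library numbered 2 and without the MyS3KO library numbered 3. Cdt1 was lower in untreated MyS3KO (-0.60 ± 0.17, edgeR adjusted p = 0.0202) and so was Pola2, the second subunit of polymerase alpha (-0.51 ± 0.16, adjusted p = 0.0266), calls lost in 4 and 8 of 14 alternatives. With TGF-β1 the origin recognition gene Orc2 was lower, at 7.89, 8.40 and 6.77 CPM in Smad3fl and 3.00, 5.41 and 4.39 in MyS3KO (-0.84 ± 0.29, adjusted p = 0.0362), a call lost in 5 of 14. Orc2 overlaps Nif3l1 on the opposite strand by whole gene spans, and reads may be mixed where exons overlap, which was not checked. The interaction in this line was called for 0 of 41 genes by edgeR and by DESeq2, with 2 at an unadjusted p under 0.05, where 0.021% of all genes were called. Those were Cdt1 (0.77 ± 0.24, adjusted p = 0.713) and Rfc1 (-0.56 ± 0.25, adjusted p = 0.728).

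The untreated count depended on single libraries. With only the 2 groups compared in the fit, 1 gene was called untreated, E2f2. The untreated count was 4 without the Smad3fl library numbered 1, 2 without the Smad3fl library numbered 2, and 3 without either the MyS3KO library numbered 2 or that numbered 3. E2f2 was called in each of its 14 alternatives under both treatments, and so were Mcm6 and Mcm10 with TGF-β1. With TGF-β1 the count was 4 without the treated Smad3fl library numbered 2. The neutrophil list summed to 2.77 to 19.1 CPM in untreated Smad3fl and 13.8 to 23.0 in untreated MyS3KO, with 0 of 6 tested genes called in either direction. The S and G2/M list summed to 63.7 to 70.7 CPM in untreated Smad3fl and 79.4 to 141 in untreated MyS3KO, with 2 of 27 genes higher and 0 lower. Untreated Smad2fl and MyS2KO, at 90.2 to 102 and 107 to 116 CPM, also lay above untreated Smad3fl. With TGF-β1 the sums overlapped, at 65.8 to 81.5 CPM in Smad3fl and 74.1 to 111 in MyS3KO. There Top2a (2.11 ± 0.52) and Kif11 (1.12 ± 0.38) were higher in MyS3KO, and Bub1 (-1.81 ± 0.54) and Nuf2 (-1.39 ± 0.41) were lower. Of 3 tested osteoclast genes, Acp5 was higher in MyS3KO under both treatments, by 1.58 ± 0.40 untreated (edgeR adjusted p = 0.00858) and 1.50 ± 0.40 with TGF-β1. Of 8 tested macrophage genes, Cd68 (0.52 ± 0.15) and Mertk were higher and Itgam lower untreated, and Cd68 (0.71 ± 0.16) and Fcgr1 were higher with TGF-β1. The B cell gene Ms4a1 was lower with TGF-β1 (-1.86 ± 0.54). The part of these lists in the results was not tested.

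**Figure D5:**
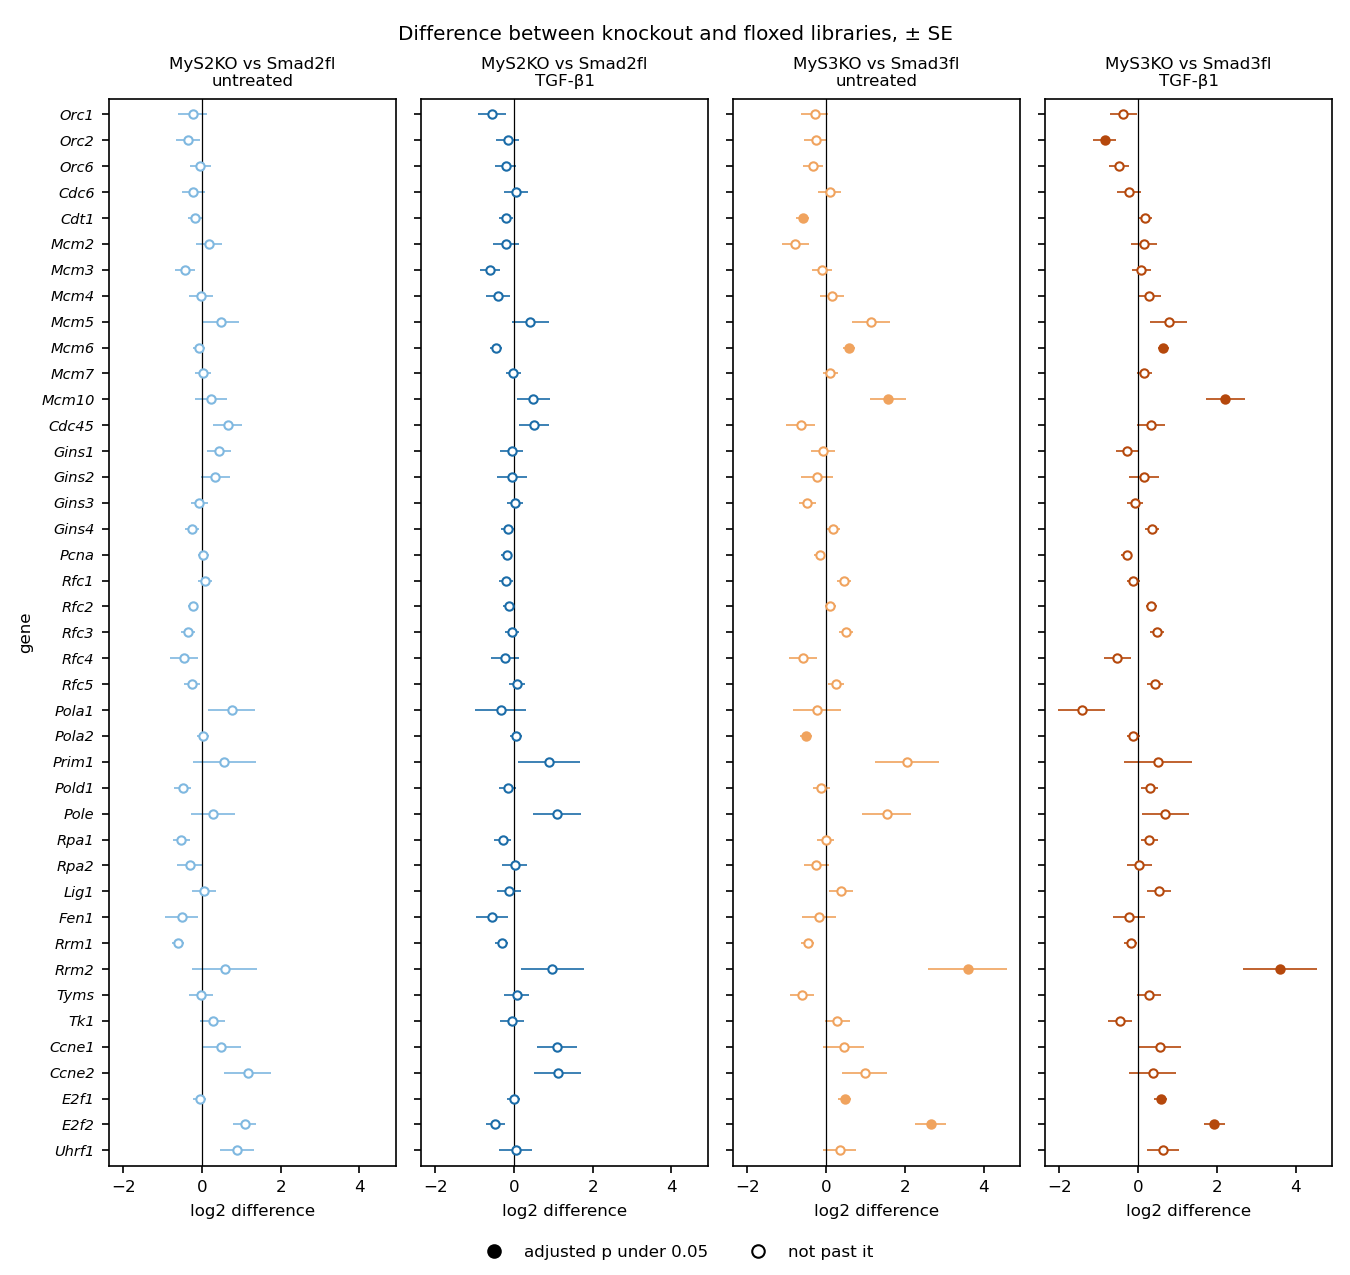
Log2 difference ± SE of each of 41 genes between knockout and floxed libraries of each line, untreated and with TGF-β1, filled where the adjusted p was under 0.05. No gene is filled in the Smad2 line, and E2f2 at 2.66 and 1.94 is filled in the Smad3 line.

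The floxed groups of the 2 lines were also set against each other. Smad3fl held less E2f2, Mcm10, Mcm6, Rfc2 and Rfc3 than Smad2fl under both treatments. Untreated, 8 of 41 genes were called, 1 higher and 7 lower in Smad3fl, where 33.4% of all genes were called. With TGF-β1, 7 were called, 1 higher and 6 lower, where 25.3% of all genes were called. The shares of the replication and G1/S genes were 19.5% and 17.1%, and the difference from all genes was not tested. The comparisons of MyS3KO with Smad3fl and of Smad3fl with Smad2fl share the Smad3fl libraries, so their values are given side by side. E2f2 was at 2.66 in the first and at -2.45 ± 0.39 (edgeR adjusted p = 9.78e-05) in the second, untreated. Mcm10 was at 1.57 and -2.38 ± 0.45 (adjusted p = 0.000472), and Mcm6 at 0.57 and -0.97 ± 0.15 (adjusted p = 7.87e-05).

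The clamp loader genes were lower in untreated Smad3fl as well. Rfc3 stood at 16.4, 21.2 and 18.8 CPM in untreated Smad2fl and 9.86, 7.61 and 12.3 in untreated Smad3fl (-0.92 ± 0.18, edgeR adjusted p = 0.00062), with no overlap. Rfc2 differed by -0.58 ± 0.13 (adjusted p = 0.00241) and Rfc5 by -0.62 ± 0.20 (adjusted p = 0.0245), a call lost in 6 of 14 alternatives. Rfc2 overlaps Lat2 and Rfc5 overlaps Wsb2 on the opposite strand by whole gene spans, each with more reads. Reads of either pair may be mixed where exons overlap, which was not checked. Pole differed by -1.65 ± 0.62 (adjusted p = 0.0457), on 39 reads in Smad2fl and 13 in Smad3fl, and lost the call in 8 of 12 alternatives. Gins3, of the GINS complex, was the 1 gene higher in Smad3fl, by 0.60 ± 0.21 untreated (adjusted p = 0.0301) and 0.61 ± 0.21 with TGF-β1 (adjusted p = 0.0362), calls lost in 6 and 7 of 14. With TGF-β1 Rfc3 (-0.65 ± 0.18), Rfc2 (-0.56 ± 0.13) and Pola2 (-0.44 ± 0.16) were lower. The Pola2 call was lost in 10 of 14 alternatives, that of Rfc3 in 1, without the treated Smad2fl library numbered 2, and that of Rfc2 in 0. The counts were 5 of 41 without the untreated Smad3fl library numbered 2 and 4 without the treated Smad2fl library numbered 2. The B cell list summed to 66.8 to 161 CPM in untreated Smad3fl and 157 to 238 in untreated Smad2fl, with 2 of 3 tested genes lower, and 2 of 6 neutrophil genes, S100a8 and S100a9, were higher. Of 8 tested macrophage genes 4 were lower untreated, Lyz2 (-1.47 ± 0.38), Fcgr1 (-0.95 ± 0.21), Cd68 and Csf1r, and 5 with TGF-β1. Of the osteoclast genes Ctsk (1.01 ± 0.21) and Dcstamp (1.23 ± 0.45) were higher and Acp5 (-1.52 ± 0.40) lower in untreated Smad3fl, and all 3 were called the same way with TGF-β1, Dcstamp at 2.42 ± 0.46. The megakaryocyte gene Pf4 was lower (-0.95 ± 0.24), and the dendritic cell gene Xcr1 was higher untreated. The part of these lists in the differences was not tested. The Smad3fl libraries stand apart from the Smad2fl libraries in many genes, and line and any other difference between the groups cannot be told apart.

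The 2 knockout groups differed in few of these genes. MyS3KO against MyS2KO untreated gave 1 call, Gins2, lower (-1.48 ± 0.40, edgeR adjusted p = 0.0267), where 5.97% of all genes were called. Gins2 stood at 2.24, 1.58 and 2.52 CPM in MyS2KO and 0.298, 0.740 and 1.17 in MyS3KO, with no overlap. Gins2 overlaps Gse1, which has more reads, on the opposite strand by whole gene spans. Reads of both may be mixed where exons overlap, which was not checked. With TGF-β1 there were 2 calls, Mcm3 higher (0.98 ± 0.26, adjusted p = 0.0211) and Pola2 lower (-0.60 ± 0.16, adjusted p = 0.0214), where 6.72% of all genes were called. The untreated count was 0 without the MyS2KO library numbered 1 or 3 or the MyS3KO library numbered 2, and 2 other genes were called without the MyS3KO library numbered 1. With TGF-β1 it was 0 without the MyS3KO library numbered 2 or 3 and 1 without any 1 MyS2KO library.

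The lines were last compared in their effects. The TGF-β1 response of the 2 floxed groups did not differ for any of the 41 genes by edgeR or by DESeq2, with 1 at an unadjusted p under 0.05, where 0% of all genes were called. For E2f2 the responses were 3.57 in Smad2fl and 3.88 in Smad3fl. The knockout effect differed between the lines for 1 gene untreated, Rfc3, where 4.93% of all genes were called. That call was at 0.86 ± 0.25 (edgeR adjusted p = 0.0497), and it was lost in 11 of 20 alternatives. The count of called genes, whichever they were, was 0 without any 1 of 8 of the 12 libraries. It was 4 without the Smad3fl library numbered 3 and 2 without the MyS3KO library numbered 1. The knockout effect differed for 2 genes with TGF-β1, E2f2 and Mcm6, where 7.09% were called. With TGF-β1 the knockout difference of E2f2 was -0.47 ± 0.25 in the Smad2 line and 1.94 ± 0.27 in the Smad3 line, and of Mcm6 -0.47 ± 0.15 and 0.64 ± 0.15. In treated libraries E2f2 stood at 12.1 to 16.1 CPM in Smad2fl, 8.95 to 11.1 in MyS2KO, 2.27 to 4.48 in Smad3fl and 9.63 to 13.5 in MyS3KO. Smad3fl was the group that stood apart, and the other 3 lay close together.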

How the data were processed

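RNA was measured in 24 libraries, 3 in each of 8 groups. The authors deposited raw read counts per gene and, per the file headers and values, FPKM computed from those counts with 1 length per gene, a second unit and not a second measurement. TopHat2 2.0.9, HTSeq 0.6.1 and Cufflinks 2.1.1 with mm10 and GRCm38.p6 are named in the submitters' processing notes. How reads were assigned to genes, and whether strand was used, is not stated there.

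Counts were fitted with edgeR 4.0.16 (R 4.3.3, limma 3.58.1), quasi-likelihood test, TMM scaling and 1 coefficient per group over all 24 libraries. The filterByExpr low-count filter left 14261 of 54532 genes. P-values were Benjamini-Hochberg adjusted over those genes and called under 0.05. Errors after ± are SE for log2 changes, computed from the F value. The fit had 16 residual degrees of freedom and a median biological coefficient of variation of 21.2%. DESeq2 1.42.0 was an alternative. The procedure was tested on simulated data.

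The genes and lists were chosen with earlier results of these data known. Genes named were 1 or more per role, those called in each comparison (the 8 of smallest p if more), the one of largest change, and called genes against the median's sign. From other lists at most 4 called genes per comparison were named, except genes that describe a check.

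Same-numbered libraries deviated together, with every correlation over 0.1, between treatments in MyS2KO (0.154, 0.223 and 0.405) and Smad3fl (0.445, 0.345 and 0.334), and in no other pair of groups. Between libraries of unlike number the highest correlation was 0.197 in MyS2KO, above the 0.154, and -0.0921 in Smad3fl. In Smad2fl it was 0.0384, below each same-numbered value (0.0465, 0.135 and 0.159). The cutoff of 0.1 thus does not settle where libraries were paired. No 2 libraries of a group agreed within sampling noise, as the chi-square per degree of freedom over genes was at least 6.24. Library totals of 16.9 to 24.9 M reads limit the precision for genes with few reads.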

Additional observations from a re-analysis of the deposited data

Results flagged for a closer look

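The effect of the knockout differed between the lines for 3 genes, by a test of the difference itself (Smad3 line minus Smad2 line, edgeR's quasi-likelihood test with Benjamini-Hochberg adjustment). For E2f2 with TGF-β1 the difference was 2.41 ± 0.36 on the log2 scale (adjusted p = 0.000795), and for Mcm6 with TGF-β1 it was 1.11 ± 0.21 (adjusted p = 0.0044). Both kept their call in 20 of 20 alternatives. For Rfc3 untreated it was 0.86 ± 0.25 (adjusted p = 0.0497), a call kept in 9 of 20 alternatives. Untreated Rfc3 stood at 14.4, 13.4 and 15.9 CPM in MyS2KO and 14.1, 12.5 and 15.4 in MyS3KO, while the floxed groups stood at 16.4, 21.2 and 18.8 and at 9.86, 7.61 and 12.3. In each of the 3 cases the Smad3fl libraries were the lowest group.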

How the results depend on the processing

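Of 66 called values of single genes, none reversed over 1123 alternative values: 961 stayed on their side of the threshold and 162 lost the call. Library totals in place of TMM moved the all-gene median log2 value by over 0.1 in the Smad3fl response (from -0.0338 to 0.0868), MyS3KO against Smad3fl with TGF-β1 (from 0.0092 to -0.0976) and Smad3fl against Smad2fl (from 0.0702 to 0.186 untreated and from 0.00742 to 0.153 with TGF-β1), and left 0 calls in MyS3KO against MyS2KO untreated. Without the low-count filter, MyS2KO against Smad2fl gave 1 call untreated and 1 with TGF-β1 (161 and 313 over all genes, against 10 and 60 with the filter), Smad3fl against Smad2fl untreated gave 5, and MyS3KO against MyS2KO gave 2 untreated and 1 with TGF-β1. The DESeq2 Wald test gave 1 call in MyS2KO against Smad2fl untreated, 2 and 4 in MyS3KO against MyS2KO untreated and with TGF-β1, and 2 in the line difference of the knockout effect untreated. With only the groups compared in the fit, MyS3KO against Smad3fl untreated gave 1, Smad3fl against Smad2fl untreated 5, MyS3KO against MyS2KO 0 untreated and 1 with TGF-β1, and the untreated line difference of the knockout effect 0. The replicate block gave 8 calls in the Smad2fl response, 5 in MyS2KO, 10 in Smad3fl, 9 in MyS3KO and 15 in the mean response. In MyS2KO and Smad3fl the calls over all genes rose with the block as well, and for the others that share is not given here. These counts are therefore not read as a gain of the replication and G1/S genes. E2f1 lost its call in MyS3KO against Smad3fl untreated with the block. Without both Smad3fl libraries numbered 3, the untreated line difference of the knockout effect had 5 calls. The cause of these shifts was not tested. Leaving out 1 library at a time gave 3 to 4 calls in the Smad2fl response, 2 in MyS2KO, 4 to 7 in Smad3fl, 4 to 6 in MyS3KO, 10 to 14 in the mean response, 2 to 8 and 4 to 6 in MyS3KO against Smad3fl untreated and with TGF-β1, 5 to 7 and 4 to 6 in Smad3fl against Smad2fl, 0 to 2 and 0 to 3 in MyS3KO against MyS2KO, and 0 to 4 and 2 to 3 in the line difference of the knockout effect. The comparisons with 0 calls stayed at 0 there. FPKM was not run as an alternative to CPM, since the units differ. Genes under 1 FPKM, such as Rrm2, Pole and Prim1, have too few reads for small differences to be detectable.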

Other observations

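Genes near the responding replication genes were read within 300 kb, in the mean TGF-β1 response of the same fit, where 30.1% of all tested genes were called. Those named were chosen after their values were seen. Of the tested neighbours, 7 of 14 were called around E2f2, 6 of 18 around Cdt1, 5 of 10 around Tk1, 1 of 7 around Mcm6 and 1 of 2 around Mcm3. Near E2f2, Id3, an inhibitor of basic helix-loop-helix factors, lay 26639 bases away and rose by 2.43 ± 0.17 on the log2 scale (edgeR adjusted p = 9.4e-11). Asap3, closer to E2f2 at 10308 bases, was not called (-0.62 ± 0.325). Cxcr4, the receptor of the chemokine Cxcl12, lay 228535 bases from Mcm6 and rose by 2.71 ± 0.09 (adjusted p = 1.47e-16). Near Tk1, Birc5 rose by 0.88 at 23159 bases, while Syngr2, closer at 1243 bases, was not called (0.05 ± 0.10). Afmid rose by 0.83, but it overlaps Tk1 and reads of both may be mixed. Whether neighbouring genes share regulation was not tested.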
